A study of Mus musculus with 8 samples.

Results

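The regions described here carried a Rad21 peak in 4, 5, 6 or 7 of 8 peak lists from CH12F3 cells. Peaks of the 8 lists that overlapped by at least 1 bp were merged, and regions on chromosomes 1 to 19 were kept, except for the end of chromosome 12, which holds the engineered Igh locus. This gave 62901 regions, of which 11221 (17.8%) were held by 4 to 7 lists. They comprised 3026 regions of 4 lists, 2643 of 5, 2519 of 6 and 3033 of 7. On the same chromosomes 6691 regions (10.6%) were held by all 8 lists. The regions were chosen by the presence of a peak in each list, so presence, height and width are given as descriptions without a test.

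Rad21 is the kleisin subunit that closes the cohesin ring. Cohesin moves along chromatin and extrudes loops, and it pauses where CTCF is bound, so that Rad21 ChIP-seq peaks mark loop anchors and other sites where the ring stays. In B cells such loops bring the switch regions of the immunoglobulin heavy chain locus (Igh) together before they are broken and joined. A peak list shows where enrichment passed a threshold in 1 library. A region in some lists but not in others may be near that threshold or may differ between the cells, among other possibilities. The lists alone do not tell which.

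The CH12F3 line, from a mouse B lymphoma, can switch its antibody class from IgM to IgA. All cells lacked AID (AID-/-), the deaminase that starts switching, and had been treated with anti-CD40, IL4 and TGF-β for 3 days. PS_Ia cells were αInv cells with a deletion between Sγ3 and Sα that left part of both switch regions. PS_Ca cells carried the same kind of deletion in a second background, where the non-coding Igh allele has lost everything between VH and the CTCF-binding elements at its 3' end. FS_Ia cells were αInv cells in which the deletion from Cγ3 to Cα left Sγ3 and Sα at full length. FS_Ca cells had a deletion from Cγ3 to Iα, again with full-length Sγ3 and Sα, in the cells with the shortened non-coding allele. Each genotype had 2 libraries. The labels do not say whether these came from separate cultures or clones, so p-values measure the spread between these libraries only, which may be technical. The chromatin came from bulk cells, so fewer cells with Rad21 at a region and less Rad21 in each cell cannot be told apart.

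The lists had 20582 and 47461 peaks in PS_Ia replicates 1 and 2, 30982 and 11288 in PS_Ca, 13840 and 26157 in FS_Ia, and 17212 and 31550 in FS_Ca. Read numbers are not analysed here. By the prefix of their peak names the libraries fell into 3 sets: the 4 FS libraries, the first PS libraries and the second PS libraries. FS and PS libraries never shared a set, and the effects of set and of switch length cannot be told apart. Both Ia genotypes were αInv cells, and both Ca genotypes had the shortened non-coding allele. The effects of orientation (Ia against Ca) and of cell background therefore cannot be told apart either.

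The short lists lacked most of these regions. PS_Ia replicates 1 and 2 held 7982 (71.1%) and 10602 (94.5%) of the 11221 regions. In PS_Ca the numbers were 10560 (94.1%) and 2532 (22.6%). FS_Ia held 5188 (46.2%) and 8055 (71.8%), and FS_Ca held 6798 (60.6%) and 9947 (88.6%). Within every genotype the longer list held more, and the 2 libraries of PS_Ca lay at opposite ends. PS_Ca replicate 2 alone accounted for 30.9% of all absences and FS_Ia replicate 1 for 21.5%. At least 1 of these 2 lists, the shortest of all, lacked 10084 regions (89.9%).

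**Figure D1:**
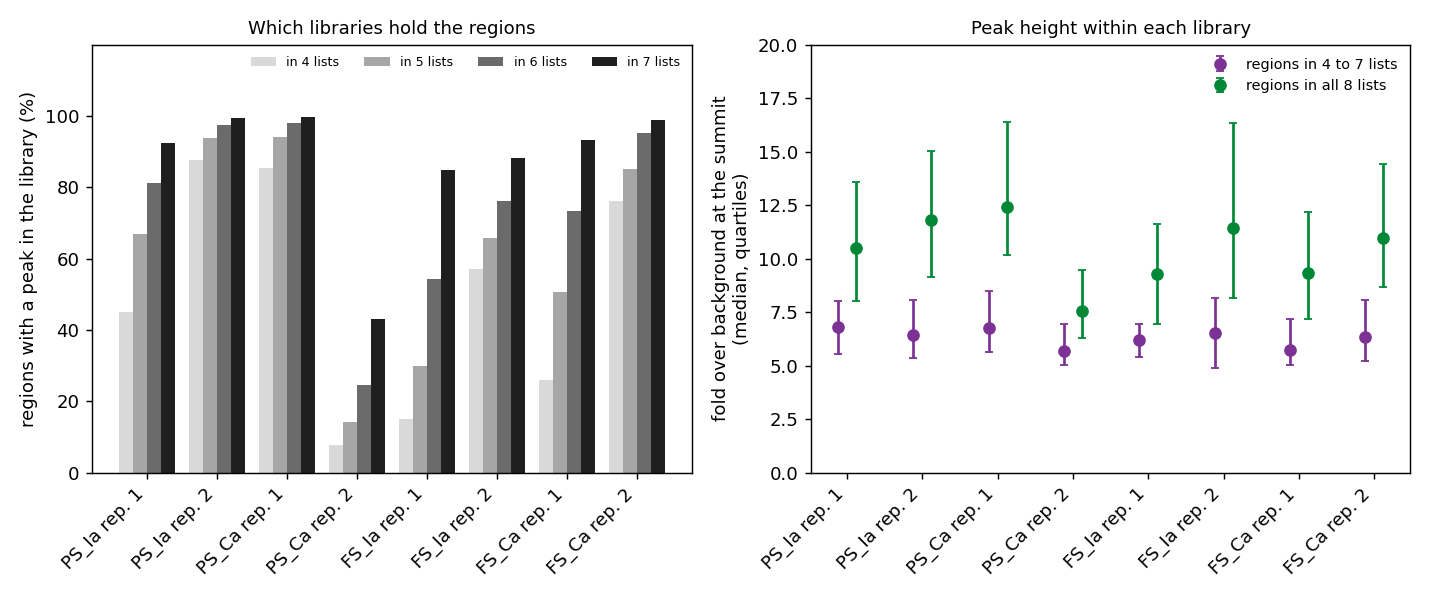
Left, the percentage of regions held by 4, 5, 6 or 7 lists that had a peak in each library; right, the fold over background at the summit (points, medians; bars, quartiles) of the regions in 4 to 7 lists and in all 8 lists. PS_Ca replicate 2 held 43.0% of the regions of 7 lists, whereas the other 7 libraries held 84.97% to 99.8%.

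Absences were partly nested by list length. If length alone decided, a region missing from 2 lists would be missing from the 2 shortest. That exact pattern was the most frequent one for each number of lists. It was seen in 1730 (57.0%) of the regions of 7 lists, 725 (28.8%) of 6 lists, 647 (24.5%) of 5 lists and 897 (29.6%) of 4 lists, together 3999 regions (35.6%). The other regions spread over many patterns, and 150 of the 162 possible ones occurred. The next most frequent pattern, with 592 regions, was absence from PS_Ca replicate 2, both FS_Ia libraries and FS_Ca replicate 1. There FS_Ia replicate 2 took the place of the shorter PS_Ia replicate 1.

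A measure that left the library in question out of the choice gave the same order. For each library, regions held by 4 to 6 of the other 7 lists were taken, and the percentage with a peak in that library was its recovery. PS_Ia replicates 1 and 2 recovered 68.8% of 9651 and 93.0% of 8601 regions. PS_Ca recovered 92.5% of 8669 and 24.8% of 9253 regions. FS_Ia recovered 45.9% of 10312 and 69.3% of 9147 regions, and FS_Ca 58.8% of 10233 and 86.1% of 8919 regions. Wilson 95% intervals, which cover counting error only, were narrow beside these differences, for example 44.96% to 46.9% in FS_Ia replicate 1.

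Recovery followed list length over the 8 libraries, with Pearson's r = 0.878 (p = 0.00464 by exact permutation, 0.00928 after adjustment for the 2 relations examined). Spearman's rho was 0.976 (p = 0.000397 by exact permutation, adjusted 0.000794). Both quantities count peaks of the same list, and a longer list can reach more regions, so a positive relation was likely beforehand. Without PS_Ia replicate 2 and PS_Ca replicate 2, the lists farthest from the median length, r was 0.958 (exact permutation p = 0.00417). In the same 6 libraries rho was 0.943 (exact permutation p = 0.0167). Within the FS set, which with 4 libraries is too small for a correlation, recovery had the same order as list length. In both PS sets the longer list also recovered more. The expected background of a list, its only sign of depth, gave r = 0.556 (p = 0.154 by exact permutation, adjusted 0.154) and rho = 0.690 (p = 0.0694, adjusted 0.0694). Without the FS_Ia libraries, farthest from the median background, r was 0.675 (exact permutation p = 0.142). There rho was 0.943 (exact permutation p = 0.0167), the same as for list length without its 2 extreme lists. Without PS_Ca replicate 2 alone, r with background was 0.850 (exact permutation, adjusted p = 0.0228).

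**Figure D2:**
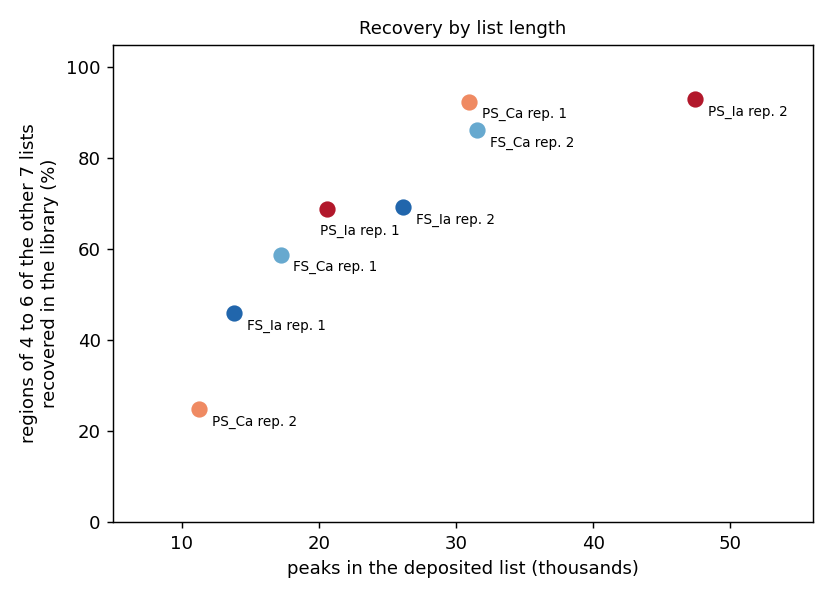
Recovery, the percentage of regions of 4 to 6 of the other 7 lists that had a peak in a library, against the number of peaks in its list, with 1 point per library coloured by genotype. The points lie between 24.8% at 11288 peaks and 93.0% at 47461 peaks, and libraries of 1 genotype do not lie together.

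Neither orientation nor switch length separated the libraries. The Ia libraries recovered 69.2 ± 19.2% on average and the Ca libraries 65.5 ± 30.9% (SD, n = 4 each). They differed by 3.71 points (exact two-sided permutation test, p = 0.8286, and 0.8286 adjusted over 2 contrasts). PS libraries recovered 69.8 ± 32.0% and FS libraries 65.0 ± 17.0% (SD, n = 4 each), and differed by 4.73 points (exact permutation p = 0.8, adjusted 0.8286). The smallest p that 4 against 4 libraries allow is 0.0286. Both differences were smaller than the spread within a group, and their signs rested on single libraries. Ia minus Ca was -2.88 points without PS_Ia replicate 2 and -10.9 points without PS_Ca replicate 2. PS minus FS was -4.27 without PS_Ia replicate 2, -4.70 without PS_Ca replicate 1 and -1.89 without FS_Ia replicate 1, and 22.4 without PS_Ca replicate 2. Within the sets, Ia minus Ca was -23.7 points in the first PS libraries, 68.2 in the second and -14.9 in the FS libraries. PS minus FS has no value within a set.

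With every list cut to its 11288 strongest peaks, 6141 regions were held by 4 to 7 lists and the libraries drew together. Recovery was then 68.7% and 71.8% in PS_Ia, 78.4% and 59.96% in PS_Ca, 69.6% and 61.6% in FS_Ia, and 69.5% and 74.7% in FS_Ca. The range over libraries was thus 59.96% to 78.4%, against 24.8% to 93.0% in the full lists. Ia libraries averaged 67.9 ± 4.404% and Ca libraries 70.6 ± 8.00% (SD, n = 4 each; exact permutation, adjusted p = 0.857). In PS libraries the mean was 69.7 ± 7.65% and in FS libraries 68.9 ± 5.40% (SD, n = 4 each; exact permutation, adjusted p = 0.857). PS_Ca replicate 2, whose list was not shortened, stayed lowest.

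Absence from both libraries of 1 genotype, with a peak in the other 6, was seen at 244 regions. With 1 library left out, a peak was needed in fewer libraries, and the genotype of that library was not counted. On that looser rule the count was 709 without PS_Ca replicate 2, and 124 or 83 without FS_Ia replicate 1 or 2. These counts are therefore not on the same measure as the 244. Regions lacked by both FS_Ia libraries and held by the other 6 numbered 190, which is 0.302% of the 62901 regions and 7.54% of the regions of 6 lists. PS_Ca accounted for 35 such regions (0.0556% of all), PS_Ia for 10 (0.0159%) and FS_Ca for 9 (0.0143%). Among the pairs of libraries that regions of 6 lists can lack, the FS_Ia pair came in frequency after 4 pairs that all contained PS_Ca replicate 2 and joined different genotypes. The most frequent of these, PS_Ca replicate 2 with FS_Ia replicate 1, was lacked by 725 regions. In lists of equal length the counts were 51 for PS_Ia, 48 for PS_Ca, 118 for FS_Ia and 28 for FS_Ca. The cut lists gave 6141 regions of the kind described here. Their shares of all regions, and of the regions of 6 lists, are not available for the cut lists. The counts from the cut lists therefore cannot be set against those from the full lists.

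The regions that both FS_Ia libraries lacked included tall ones. The best-ranked, at chromosome 1, 24618401 to 24623056 (mm9, as are all positions), had folds over background of 30.8 and 16.1 in PS_Ia replicates 1 and 2, 18.1 and 9.45 in PS_Ca, and 6.46 and 15.6 in FS_Ca. It lay 905 kb from the nearest region of all 8 lists. The second, at chromosome 14, 87851398 to 87852634, had folds of 17.9 and 8.59 in PS_Ia, 10.2 and 6.93 in PS_Ca, and 10.0 and 11.6 in FS_Ca. In both, the largest fold was that of PS_Ia replicate 1, although folds of different lists share no common scale. Of the 190 regions 30 (15.8%) lay on chromosome 1, which held 7.33% of all regions in 4 to 7 lists. No region was screened for repeated or poorly mappable sequence, and the part of mapping in these folds and positions was not tested.

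Both PS_Ca libraries lacked a region at chromosome 13, 83864186 to 83865135, where folds were 11.7 and 9.67 in PS_Ia, 13.2 and 8.99 in FS_Ia, and 11.5 and 7.51 in FS_Ca. They also lacked chromosome 13, 51512428 to 51514798, with folds of 8.51 to 13.1 in the other 6 libraries. Of the 35 regions of this kind 14 (40%) lay on chromosome 16, which held 4.65% of all regions in 4 to 7 lists. PS_Ia libraries lacked chromosome 10, 117944348 to 117945420 (folds 6.19 to 13.1 elsewhere), and FS_Ca libraries lacked chromosome 13, 95879113 to 95879987 (folds 6.30 to 10.6 elsewhere).

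Regions that followed a whole factor were few. All 4 Ia and no Ca library held 16 regions (0.0254% of all), and all 4 Ca and no Ia library held 15 (0.0238%). All 4 PS and no FS library held 23 (0.0366%), and all 4 FS and no PS library 5 (0.00795%). The Ca-only and PS-only regions needed a peak in PS_Ca replicate 2, and the Ia-only and FS-only regions in FS_Ia replicate 1. These short lists held 237 and 453 of the 3026 regions of 4 lists. The counts were thus bounded by list length and do not measure the effect of a factor. The median of the mean percentile rank, where 0 is the strongest peak of a list, was 55.2 for the Ia-only and 62.9 for the Ca-only regions. It was 65.0 for the PS-only and 71.2 for the FS-only regions, against 57.6 for all regions of 4 lists.

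The match between libraries was set out for every pair. For each library left out of the choice, recovery was compared between regions that a given other library held and regions that it lacked, at the same number of the remaining 6 lists. The partner of the same genotype gave the largest of the 7 differences in 0 of 8 libraries, and in up to 2 under other settings (2 without FS_Ca replicate 2). It ranked from 2 to 6 of 7, and its difference was 24.7 and 7.90 points in PS_Ia, 6.76 and 17.9 in PS_Ca, 23.9 and 21.8 in FS_Ia, and 15.1 and 7.25 in FS_Ca. The largest differences joined libraries of different genotypes: 34.6 points for FS_Ia replicate 2 with PS_Ia replicate 2, 34.6 for PS_Ia replicate 1 with PS_Ca replicate 1, and 30.7 for FS_Ca replicate 2 with PS_Ia replicate 2. These values are a description, since the libraries enter several of them. A partner drawn at random would give the largest difference in 1 of 7 libraries on average. With 8 libraries, counts of 0 to 2 therefore cannot show whether genotype mattered.

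**Figure D3:**
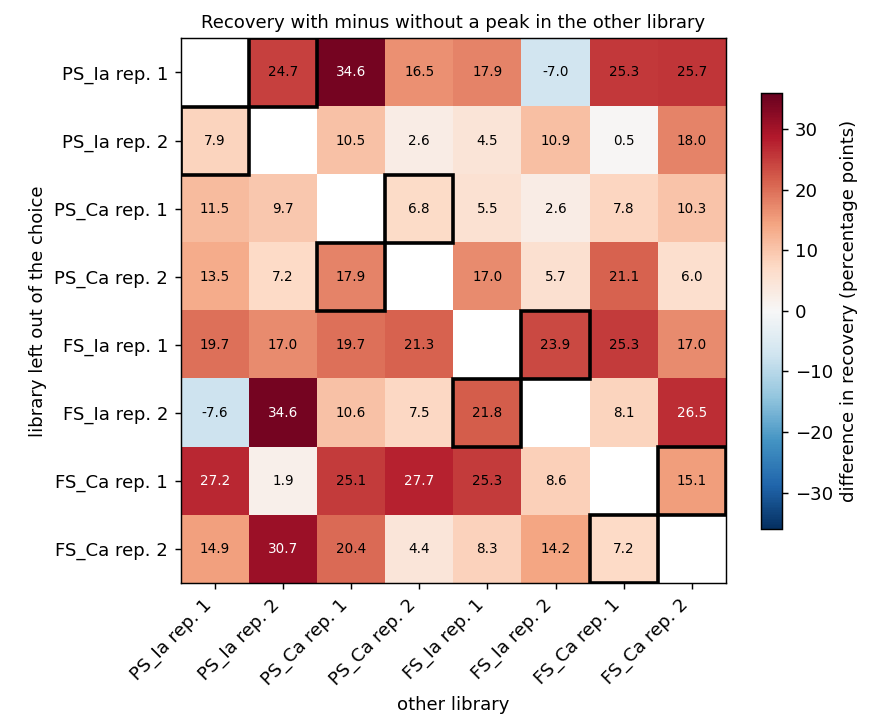
Each cell gives, for the library of its row, recovery of regions that the library of its column held minus recovery of regions that it lacked, in percentage points and at the same number of the remaining 6 lists; black frames mark libraries of the same genotype. The frames do not hold the highest value of any row, and the cells of PS_Ia replicate 1 with FS_Ia replicate 2 are negative, at -7.02 and -7.57.

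PS_Ia replicate 1 and FS_Ia replicate 2, of similar recovery, shared 46.4% of the 11221 regions. The choice of regions bears on this count, since it leaves out those held by all 8 lists and those held by few. Of the 11221 regions, 2774 were held by PS_Ia replicate 1 without FS_Ia replicate 2, 2847 the other way round, 5208 by both and 392 by neither. The regions of PS_Ia replicate 1 alone lay a median of 80.2 kb from the nearest region of all 8 lists, those of FS_Ia replicate 2 alone 55.5 kb and those of both 56.6 kb. Regions held by neither lay at 62.3 kb. More than 500 kb away were 9.63% of the first, 5.02% of the second and 4.397% of the third kind. Of the regions held by neither it was 9.44%, so such distances were not particular to PS_Ia replicate 1. Across the 17 chromosomes other than 15 and 16, the percentages that the pair lacked had r = -0.828, the lowest of 28 pairs of libraries, which reached up to 0.561. Over all 19 chromosomes r was -0.669, and 2 pairs were lower, PS_Ca replicate 1 with FS_Ca replicate 1 (-0.703) and with FS_Ia replicate 1 (-0.685). The highest was then 0.775, between the PS_Ca libraries. These are descriptions over chromosomes of the same libraries, and the 2 chromosomes were set apart after their values were seen. FS_Ia replicate 2 lacked most on chromosomes 1 and 3, at 36.3% and 34.9%, where PS_Ia replicate 1 lacked 22.3% and 21.5%. On chromosomes 8 and 7 FS_Ia replicate 2 lacked 22.5% and 22.4%, and PS_Ia replicate 1 lacked 36.4% and 32.8%. The pair also differed in expected background, at 0.622 fragments per position in PS_Ia replicate 1 and 0.223 in FS_Ia replicate 2. The part of depth in this was not tested.

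Chromosome 16 departed from the genome in both PS_Ca libraries. It held 522 of the regions. PS_Ca replicates 1 and 2 lacked 21.6% and 92.3% of them, against 5.12% and 76.7% of the regions elsewhere. The other 6 libraries all lacked fewer on chromosome 16 than elsewhere: 18.6% against 29.4% and 3.07% against 5.64% in PS_Ia, 43.3% against 54.3% and 25.7% against 28.3% in FS_Ia, and 26.1% against 40.1% and 7.66% against 11.5% in FS_Ca. The choice of regions bears on this. A region that PS_Ca libraries lacked was counted only if enough of the other lists held it. The lower percentages in the other 6 libraries can follow from that choice and are not a separate observation. Peak height also differed on chromosome 16. The mean fold (geometric) of regions of all 8 lists on chromosome 16 was 0.896 and 0.914 times that elsewhere in PS_Ca replicates 1 and 2. In PS_Ia it was 1.20 and 1.21 times that elsewhere, in FS_Ia 1.20 and 1.19, and in FS_Ca 1.20 and 1.22. The PS_Ca libraries thus did not overlap the other 6. Regions of all 8 lists needed a peak in both PS_Ca lists, which can select taller sites in the other 6 libraries. The higher ratios of those 6 are therefore not independent of the choice of regions. In lists of equal length PS_Ca still lacked 44.2% and 70.7% of the 283 regions on chromosome 16, against 18.3% and 38.6% elsewhere. These comparisons were chosen after the values were seen and carry no test. Folds use 1 background value per list, so differences in coverage between chromosomes are not corrected.

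Chromosomes 15 and 12 each stood out in 1 PS_Ia library. PS_Ia replicate 1 lacked 45.5% of its 536 regions, against 28.0% elsewhere, and 44.2% against 30.5% in lists of equal length. Its fold at regions of all 8 lists on chromosome 15 was 0.892 times that elsewhere. In PS_Ia replicate 2, of the same genotype, 6.34% were lacked against 5.47% elsewhere, with a fold ratio of 1.06. The fold ratio of the remaining 6 libraries was 1.04 to 1.09. On chromosome 12 it was PS_Ia replicate 2 that differed, with a fold ratio of 1.19, against 0.918 to 0.982 in the other 7 libraries. It lacked 2.26% of the 442 regions there and 5.65% elsewhere. Neither difference was shared by the other library of the genotype.

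**Figure D4:**
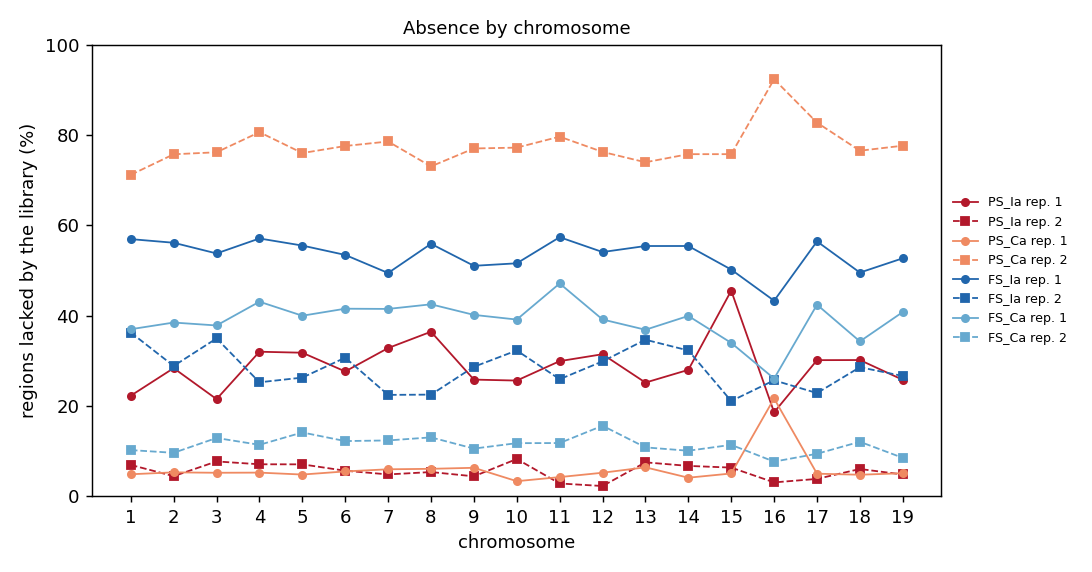
Percentage of the regions in 4 to 7 lists that each library lacked, by chromosome. PS_Ca replicates 1 and 2 reach 21.6% and 92.3% on chromosome 16, where the other 6 libraries dip below their level elsewhere, and PS_Ia replicate 1 reaches 45.5% on chromosome 15.

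Some dense windows went against list length. No window was screened for duplicated or poorly mappable sequence, and the part of mapping was not tested. The 1 Mb windows with the most regions were at chromosome 1, 87000001 to 88000000 (46 regions), chromosome 1, 85000001 to 86000000 (35), and chromosome 5, 15000001 to 16000000 (30), where the median window with any held 5. PS_Ca replicate 2, the shortest list, had a peak in all 30 regions of the chromosome 5 window, whereas PS_Ia replicate 2, the longest, had 18. PS_Ca replicate 1 had 29, PS_Ia replicate 1 had 14, FS_Ia replicates 1 and 2 had 8 and 16, and FS_Ca replicates 24 and 18. The median fold in this window was 8.82 in PS_Ca replicate 2, against 5.67 over all its regions in 4 to 7 lists. In the other libraries the window's median was 4.83 to 6.46. Folds depend on the background of their own list, so they do not compare heights between libraries.

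On chromosome 1, 87000001 to 88000000, PS_Ia held 35 and 46 of the 46 regions, PS_Ca 41 and 27, FS_Ia 9 and 20, and FS_Ca 19 and 42. At 85000001 to 86000000, PS_Ia held 30 and 34 of 35, PS_Ca 33 and 21, FS_Ia 4 and 8, and FS_Ca 22 and 33. Both FS_Ia libraries thus held few regions in the second window, where FS_Ia replicate 2 had 22.9% against 71.8% of all regions in 4 to 7 lists. PS_Ca replicate 2 held over 50% of the regions in 5 of the 95 windows with 15 or more. The other 2 of these 5 were at chromosome 8, 19000001 to 20000000, with 24 of 28, and chromosome 5, 14000001 to 15000000, with 17 of 17. In the remaining 90 windows it held 0% to 46.7%.

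Within every library the regions in 4 to 7 lists had lower summits than regions of all 8 lists. Their median fold over background was 6.78 and 6.44 in PS_Ia replicates 1 and 2, where regions of all 8 lists had 10.5 and 11.8. In PS_Ca it was 6.77 and 5.67 against 12.4 and 7.56, in FS_Ia 6.19 and 6.54 against 9.28 and 11.4, and in FS_Ca 5.74 and 6.35 against 9.33 and 10.98. Since a fold is set by whole fragments, these medians correspond to summits of 7 to 11 fragments, where regions of all 8 lists had 11 to 21. The lowest summit called in a list was 3 to 5 fragments. Within 2 fragments of it lay 9.85% to 42.6% of the peaks at regions in 4 to 7 lists, against 0.359% to 12.6% at regions of all 8 lists. Absence from a list is therefore not shown to be absence of Rad21.

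Height, in most libraries, and width were larger the more lists held a region. In PS_Ia replicate 2 the median fold was 5.91, 5.91, 6.98 and 8.06 for regions of 4, 5, 6 and 7 lists, and in PS_Ca replicate 1 it was 5.64, 6.21, 7.34 and 8.46. PS_Ca replicate 2 had 5.67 in each of the 4 kinds. The merged regions were a median of 882.5, 1007, 1173 and 1416 bp wide. Just outside the limits, regions of 3 lists (4162) were 722 bp wide with a fold of 5.37 in PS_Ia replicate 2, and regions of all 8 lists were 2026 bp wide with a fold of 11.8 there. A merged region grows with the number of peaks in it. The width of single peaks, which does not, had medians of 552 and 682 bp in PS_Ia, 639 and 266 in PS_Ca, 388 and 400 in FS_Ia, and 367 and 571 in FS_Ca. At regions of all 8 lists the medians were 881 and 1217 bp in PS_Ia, 1225 and 386 in PS_Ca, 595 and 566 in FS_Ia, and 573 and 1030 in FS_Ca.

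The summits of a region lie in peaks merged because they overlap, so the region's width (median 1107 bp) limits their distance. The strongest summits of the lists that held a region lay within a median of 311 bp of each other (quartiles 208 and 467 bp), against 258 bp (187 and 370) at regions of all 8 lists, although fewer lists were compared. By number of lists the median was 295, 319, 322 and 308 bp.

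The best-ranked regions that missed a list mostly had folds above the medians of regions of all 8 lists. Chromosome 9, 121236247 to 121237628, had folds of 31.7 in PS_Ia replicate 2, 15.2 and 35.9 in PS_Ca, 15.5 and 48.2 in FS_Ia, and 25.8 and 13.3 in FS_Ca, and was missing from PS_Ia replicate 1 only. That list, of middling length, is not 1 of the 3 shortest. Chromosome 3, 96382858 to 96385379, was missing from PS_Ca replicate 2 only, with folds of 17.9 and 15.6 in PS_Ia, 17.5 in PS_Ca replicate 1, 17.0 and 30.3 in FS_Ia, and 8.61 and 17.3 in FS_Ca. Chromosome 16, 37813895 to 37816120, also missing from PS_Ca replicate 2 only, had folds of 13.6 to 20.4 and lay 25 bp from a region of all 8 lists.

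Among regions of 6 lists the best-ranked was at chromosome 6, 4873763 to 4874270, with folds of 13.6 and 20.9 in PS_Ia, 17.5 in PS_Ca replicate 1, 8.99 in FS_Ia replicate 2, and 10.0 and 16.2 in FS_Ca. The best of 5 lists was at chromosome 2, 66027243 to 66027602, with folds of 9.81 to 14.2, 1042 kb from the nearest region of all 8 lists. PS_Ca replicate 2 and FS_Ia replicate 1, the shortest lists, lacked both. The best of 4 lists, at chromosome 14, 116958860 to 116960271, broke this order. It was held by PS_Ca replicates 1 and 2 at folds of 25.96 and 9.45, by PS_Ia replicate 2 at 11.8 and by FS_Ia replicate 2 at 11.4, and FS_Ca replicate 2, the second longest list, lacked it.

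The longest list, PS_Ia replicate 2, lacked 619 regions. The best-ranked of them, at chromosome 4, 41643930 to 41645494, was also missing from PS_Ia replicate 1 and PS_Ca replicate 2. It had folds of 9.59 in PS_Ca replicate 1, 9.28 and 24.5 in FS_Ia, and 6.46 and 6.35 in FS_Ca. The second, at chromosome 14, 41975606 to 41976731, had folds of 8.46 and 8.82 in PS_Ca, 7.36 in FS_Ia replicate 2, and 7.89 and 8.09 in FS_Ca. Both PS_Ia libraries lacked both regions.

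Regions in 4 to 7 lists lay a median of 61.0 kb from the nearest region of all 8 lists, with quartiles of 20.01 and 153 kb. Regions of all 8 lists lay 56.5 kb (19.7 and 136 kb) from their own nearest. The median of regions in 4 to 7 lists was 107 kb with peaks of −log10 q of at least 5 and 98.0 kb in lists of equal length. The median hardly moved with the number of lists, at 56.7, 60.8, 62.0 and 63.3 kb for 4, 5, 6 and 7. It was lower outside, at 48.1 kb for 3 lists, 35.4 kb for 2 and 31.3 kb for 1. Within 1 kb of a region of all 8 lists lay 3.45% of the regions in 4 to 7 lists, against 16.01% of regions in 2 lists and 13.8% in 1 list.

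**Figure D5:**
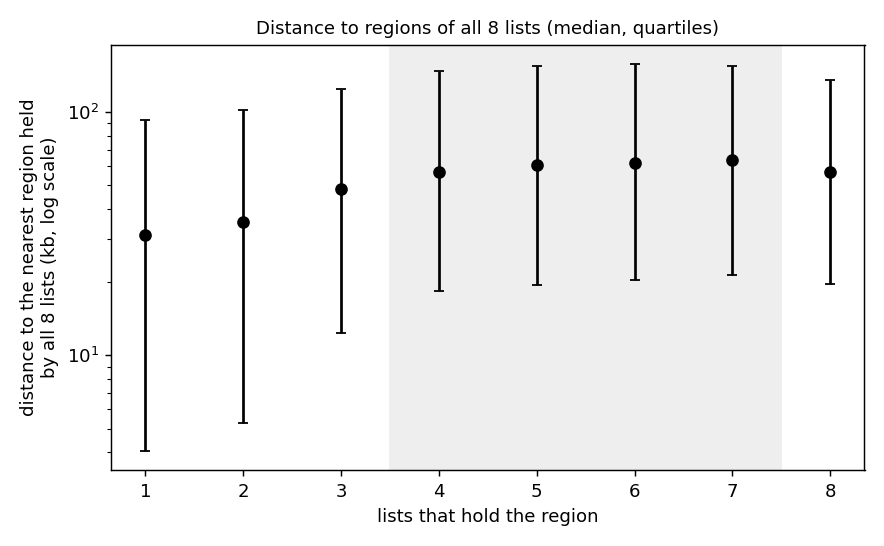
Distance to the nearest region held by all 8 lists (points, medians; bars, quartiles; log scale) by the number of lists that held a region, with the regions in 4 to 7 lists shaded. The shaded medians lie between 56.7 and 63.3 kb, and those of regions in 1 or 2 lists at 31.3 and 35.4 kb.

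The nearest other region in 4 to 7 lists was a median of 35.9 kb away. For 7051 regions (62.8%) it was closer than the nearest region of all 8 lists, which is about the 62.6% that regions in 4 to 7 lists make up of the 2 kinds together. Of the 6672 gaps between neighbouring regions of all 8 lists, 2549 (38.2%) held none, 1521 held 1, 946 held 2, and 1656 (24.8%) held 3 or more. These last gaps, of a median of 373 kb, contained 69.4% of the regions that lay in a gap, and the fullest contained 19. Empty gaps had a median of 43.7 kb.

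A small share was far from any region of all 8 lists. More than 1 Mb away lay 269 regions (2.397%), against 1.26% of regions of all 8 lists. The farthest, at chromosome 15, 18751005 to 18751698, was 6024 kb away. It had folds of 7.52 in PS_Ia replicate 2, 6.21 and 5.67 in PS_Ca, and 4.64 and 4.09 in FS_Ia, and no peak in PS_Ia replicate 1 or FS_Ca. The second, at chromosome 17, 95263740 to 95264721, was 5909 kb away, with folds of 6.98 in PS_Ia replicate 2, 8.46 in PS_Ca replicate 1, 7.36 in FS_Ia replicate 2 and 5.78 in FS_Ca replicate 2. Its 4 lists were the longest of all.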

How the data were processed

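Rad21 ChIP-seq of 8 libraries was used as deposited peak lists, 1 per library, which means separate calls rather than pooled ones. The submitters' processing notes name MACS2 2.2.7.1, Bowtie2 2.4.4, deepTools 3.5.1, SAMtools 1.15.1 and the mm9 build, with neither roles nor settings. For the peak threshold, read filters and control library, no source used here gives them. Per the labels' protocols, cross-linked chromatin was sonicated to 200 to 700 bp, precipitated with anti-Rad21 and tagmented.

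Each deposited list gives a fold (a ratio over the expected background, at the summit), −log10 p and −log10 q, a score that was not used, and how far the summit lies from the peak's start. The authors' folds and p-values belong to 1 list and only describe, rank or filter peaks there. Folds rose in steps of 1 over the background plus 1, from which the background and whole summit heights were solved (all within 0.01 of a whole number). This background was 1 value per list. Folds therefore carry no correction for differences in coverage between chromosomes or windows.

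Peaks overlapping by 1 bp or more were merged, and a region counted as held by every library with a peak in it. The strongest peak gave a region's fold, and percentile ranks used −log10 p. Distances run between facing edges. Recovery was compared by exact permutation of libraries and of their order, with Benjamini-Hochberg adjustment. Named regions were the best by mean percentile rank for each number of lists and each genotype or factor pattern, those missing from the longest list, the farthest from regions of all 8 lists and the 3 fullest windows of 1 Mb. Members, lists and alternatives were chosen with earlier results of these data known. No annotation or genome of mm9 was used here, so no gene or sequence is given. Nor was any region removed as repeated or poorly mappable sequence. Replicate numbers were not taken as pairs: replicate 1 lay below its genotype's mean recovery in 3 genotypes and above it in PS_Ca. Scripts used scipy 1.17.1, pandas 2.3.3, matplotlib 3.10.9 and numpy 2.4.6 under Python 3.11.15, and were tested on simulated data.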

Additional observations from a re-analysis of the deposited data

Results flagged for a closer look

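The mean fold of regions of all 8 lists on 1 chromosome, relative to the other chromosomes, had 1 library far from the other 3 of its orientation or switch length in 13 cases. In all, 172 groups of 4 libraries were examined (5 values per library, and this ratio and the percentage lacked on each of 19 chromosomes), where chance gives about 1 in 20. The cause was not tested.

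The widest departures were in PS_Ia. On chromosome 12 PS_Ia replicate 2 was at 1.19, against 0.963 to 0.980 in the other Ia and 0.955 to 0.982 in the other PS libraries. On chromosome 15 PS_Ia replicate 1 was at 0.892, against 1.06 to 1.09 in the other Ia and 1.04 to 1.06 in the other PS libraries.

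FS_Ia replicate 2 stood apart from the other FS libraries on 4 chromosomes. It was at 0.899 on chromosome 6 (the others 0.955 to 0.965), 1.04 on chromosome 8 (0.957 to 0.960), 0.884 on chromosome 13 (0.966 to 0.977) and 1.03 on chromosome 14 (1.08 to 1.09). FS_Ia replicate 1 was at 1.01 on chromosome 9 (0.993 to 0.995 in the other FS libraries).

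Among the Ca libraries PS_Ca replicate 2 was at 0.973 on chromosome 6 (the others 0.964 to 0.965) and at 0.984 on chromosome 8 (0.957 to 0.961). PS_Ca replicate 1 was at 1.01 on chromosome 13 (0.971 to 0.977), and FS_Ca replicate 2 at 0.951 on chromosome 19 (0.991 to 0.999).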

How the results depend on the processing

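The link of recovery with list length passed under every alternative run: r was 0.832 to 0.972, with adjusted exact permutation p of at most 0.0417. It has no value in lists of equal length. Orientation and switch length passed under none. With lists cut to 11288 peaks, Ia minus Ca turned to -2.71 points, members fell to 6141, nested absences to 566, and 1 library had its genotype partner first. The median distance was then 98.0 kb and the width 1364 bp. At −log10 q of at least 5, the distance was 107 kb, the width 1375 bp, and 160 regions lacked 1 whole genotype. With summits ± 100 bp the distance was 71.3 kb, the width 429 bp, and 1 library had its partner first. Within sets, Ia minus Ca was -14.9 points (FS) and -23.7 points (first PS libraries). Leaving out 1 library in turn gave -10.9 to 12.6 points for Ia minus Ca and -4.70 to 22.4 points for PS minus FS. In the same runs r with background was 0.392 to 0.850, passing only without PS_Ca replicate 2 (exact permutation, adjusted p = 0.0228). Members were 8601 to 10312, nested absences 2908 to 4769, libraries with their partner first 0 to 2, distance 47.9 to 63.1 kb and width 1033 to 1130 bp. Regions lacking 1 whole genotype were 83 to 709: 709 without PS_Ca replicate 2, and 83 and 124 without FS_Ia replicates 2 and 1, which takes FS_Ia out of the count, against 244 in all. Each of these runs asked for a peak in fewer libraries than the 244 did. Apart from the effects of fewer libraries, stricter lists and narrower intervals, the cause was not tested. With libraries of the same number as pairs (replicate block), the differences were 3.71 and 4.73 points, adjusted p = 1 for each (exact sign-flip test, 0.125 at the smallest). That block changed no call. Overlaps of at least 100 bp, leaving out chromosome 16 and regions of 3 to 6 of the other 7 lists changed no call. Read numbers were not analysed here, and the part of depth was not tested.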

Other observations

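Few absences had a peak close by. In the regions that a library lacked, a peak of the same library lay within 1 kb in 8.49% and 15.2% of cases in PS_Ia replicates 1 and 2, 12.1% and 4.50% in PS_Ca, 7.13% and 10.5% in FS_Ia, and 8.25% and 12.3% in FS_Ca. Within 5 kb the range over libraries was 13.2% to 29.3%. By the 1 list that regions of 7 lists lacked, their median distance to a region of all 8 lists was 78.9 kb (227 regions) and 229 kb (16) for PS_Ia replicates 1 and 2, 177 kb (7) and 56.8 kb (1730) for PS_Ca, 69.7 kb (456) and 102 kb (356) for FS_Ia, and 44.0 kb (203) and 124 kb (38) for FS_Ca. The longest lists were rarely the only one missing: PS_Ia replicate 2 in 16 regions of 7 lists, PS_Ca replicate 1 in 7 and FS_Ca replicate 2 in 38.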
